A study of Mus musculus with 24 samples.

Results

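The genes described here are the cytosolic ribosomal protein genes of the mouse hypothalamus outside Chr 17, measured by SAGE-Seq in 24 male F2 mice. They were found by name, as every gene symbol of the Rpl, Rps, Rplp or Rpsa pattern in the deposited table, leaving out the ribosomal S6 kinases and genes on Chr 17, the chromosome on which the mice differed by design. The rule gave 51 genes of the 13998 measured, 31 of the large and 20 of the small ribosomal subunit. No expression value entered the rule.

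All mice came from a cross of C57BL/6J (B6) with the B6.CAST-17.1 subcongenic strain, which carries a segment of Chr 17 from CAST/EiJ. The 12 *cast/cast* mice were homozygous for the CAST alleles across that segment, the 12 *b6/b6* mice for the B6 alleles, and both groups were *b6/b6* elsewhere in the genome, so none of the 51 genes itself lies in the segregating segment. Adult mice had chosen between a carbohydrate/protein (C/P) and a fat/protein diet for 10 d, and hypothalami were taken from fasted mice later, after a wash-out on chow and a return to both diets. The study chose mice that diverged most in carbohydrate and total intake. These were the *cast/cast* animals with the highest and the *b6/b6* animals with the lowest carbohydrate intake. The former had taken 77.8 to 106.6 kcal from the C/P diet and the latter 27.4 to 41.0 kcal, so genotype and C/P intake cannot be told apart. Total intake overlapped, with 104.0 to 133.1 kcal (median 121.4) for *cast/cast* and 94.8 to 120.2 kcal (median 106.5) for *b6/b6* animals. It too differed with genotype.

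Each ribosome is built from a large and a small subunit, and each subunit from ribosomal RNA and a fixed set of proteins. Most of these proteins are needed in equal numbers. The small subunit reads the mRNA and the large subunit joins amino acids. The mRNAs of ribosomal proteins belong to the most abundant ones in most cells. Many begin with a stretch of C and T bases, the 5′ terminal oligopyrimidine tract, through which the nutrient-sensing kinase mTOR controls their translation. In the hypothalamus, mTOR signalling in feeding neurons responds to nutrients and leptin.

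SAGE-Seq counts a single short tag per mRNA, the 27 bases that begin at the CATG nearest the 3′ end, where the enzyme NlaIII cuts. By this design the count of a gene should rest on this tag alone. The tags expected for the genes on which the results turn were read from the GENCODE reference transcripts of GRCm38, with the CATG in capitals. They are shown since a copy of the same bases in another gene could be counted under either name or left out. The deposited table gives counts per gene, so whether these tags carried the counts is not known here.
Rpl26: CATGtgggcatccaccccagcaaggtc
Rpl36a: CATGgtgaacgtgcctaaaacccgccg
Rpl37: CATGcctacagtgtcttaagacgctta
Rps19: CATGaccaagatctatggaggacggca
Rps4x: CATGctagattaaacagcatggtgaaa
Rplp0: CATGctgaacatctcccccttctcctt
Rpl8: CATGaatcctgtggagcatccctttgg
Rpl9: CATGaacaatttgggctcttttgggag
Rps27l: CATGcacagactgtggttctttgtgtg
Rpl21: CATGtcttcagtgagggactctgcaga

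The *Rpl26* tag lies on the plus strand of Chr 11 (chr11:68903296-68904367), in coding sequence and across an exon junction. The *Rps4x* tag (chrX:102184945-102184971, minus strand), the *Rpl37* tag (chr15:5118939-5118965, plus strand) and the *Rpl9* tag (chr5:65388385-65388411, minus strand) lie in 3′ UTRs. The tags of *Rpl8* (chr15:76905965-76906140, across an exon junction), *Rps19* (chr7:24888331-24888357), *Rplp0* (chr5:115561395-115561421) and *Rps27l* (chr9:66947616-66947642) lie in coding sequence, all on the plus strand. The *Rpl36a* tag (chrX:134585716-134586100, plus strand) lies mostly in coding sequence, near the start of the transcript, and spans exons. The *Rpl21* tag (chr5:146836944-146836970) lies in the 3′ UTR on the plus strand. Of these 10 tags, that of *Rps19* occurred in 6 other annotated genes, that of *Rplp0* in 3, all of them pseudogenes, and that of *Rpl9* in 1 other gene. Among all 51 genes, 32 had a tag found in no other annotated gene and 19 had a shared one, with up to 10 other genes. Counts of these 19 could include tags from copies, and their values are uncertain to that extent.

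Levels are given as normalized tag counts, which are tag hits divided by a scaling factor of the library. Since each mRNA should give 1 tag whatever its length, levels of different genes were compared without dividing by length. The efficiency of tagging may differ between genes. The tag counts of the ribosomal protein genes covered a 2979-fold range. How much of it is mRNA level, and how much tagging or mapping, cannot be told apart here. *Rpl9*, a large-subunit protein near the site where elongation factors bind, was the highest with a mean of 43972 over 24 mice. It had the 12th highest count of all genes. It was followed by *Rpl5* with 19133, a protein that carries a small rRNA into the large subunit, *Rpl8* with 17702 and *Rpl26* with 15588. *Rpl9* alone held 22.5% of the tags of all 51. At the other end were *Rpsa* (14.8), the small-subunit protein also known as the laminin receptor precursor, *Rpl6* (16.2), *Rps24* (24.5), *Rps23* (25.3) and *Rpl10* (25.4). The median gene stood at 658, against 151 over all genes, 23 had a mean above 1000 and 14 a mean below 100, while 16 lay below the median of all genes.

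**Figure D1:**
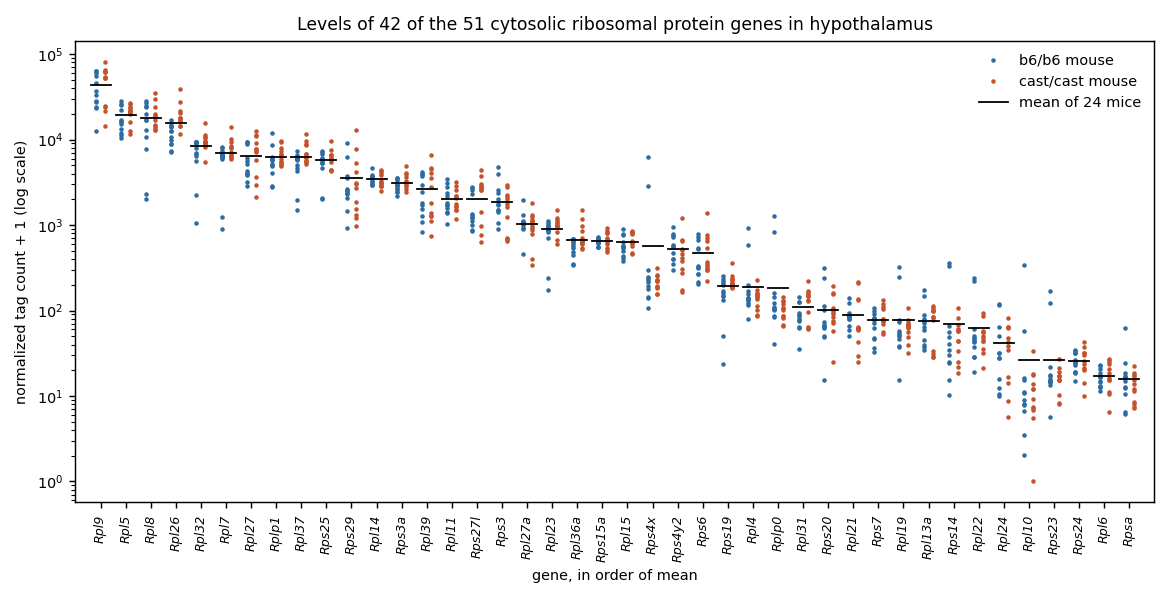
Normalized tag count + 1 (log axis) of 42 of the 51 ribosomal protein genes in each of the 24 mice, with genes in order of the mean (line) and points coloured by genotype. The genes run from *Rpl9*, with a mean of 43972, to *Rpsa*, with a mean of 14.8, and the points of both genotypes overlap for all of them.

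The 51 genes together took 1.46% to 2.33% of the tag hits of a *b6/b6* library (median 1.73%) and 1.35% to 2.82% of a *cast/cast* library (median 2.14%). The means were 1.82% ± 0.282 (SD, n = 12) and 2.08% ± 0.483 (SD, n = 12). The ranges overlapped, and the difference between the means was not tested.

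Libraries held 7754202 to 13082873 tag hits, and a gene was taken as detectable in a mouse from 3 hits. Of 11 hypothalamic neuropeptide genes 10 were in the table, and their summed level was 5900 to 34817 in every mouse. The libraries of *b6/b6* mice 6 and 12 stood apart from the other 22. On the second principal component of 9503 genes that were neither ribosomal nor on Chr 17, these 2 mice scored 0.494 and 0.639, and the others −0.348 to 0.170. Of 5 blood genes 3 were measured, and their sum was 1704 and 4999 in these mice and 105 to 1044 in the others. The sum of 5 microglial genes was 1601 and 1527 in them and 1940 to 5180 in the others, and that of 3 of 4 ependymal genes was 188 and 284 against 261 to 1865. Both mice had low study numbers (42 and 27), a proxy of when an animal was tested, as had *b6/b6* mouse 9 (41) and *cast/cast* mouse 4 (15), which did not stand apart. The part that these marker genes or the time of testing had in the results was not tested. In whole tissue, fewer cells of a type cannot be told apart from less RNA per cell. The comparisons were therefore also made without these 2 mice.

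The ribosomal protein genes did not move as a block in these 2 mice. In both animals, 12 genes lay above all of the other 22 mice (23.5%, against 18.6% of all genes) and 10 lay below all of them (19.6%, against 11.8% of all genes). The other 29 did neither. The 2 sets held genes of both subunits, with 7 of the large and 5 of the small subunit above, and 7 and 3 below.

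*Rps4x*, an X-linked protein of the small subunit, had 2843 and 6309 normalized counts in mice 6 and 12. Among the other 22 mice it ran from 106 to 313 with a median of 218. The lower of the pair was 9.07-fold above the highest other mouse, and the genotypes overlapped without the pair. *Rplp0*, the base of the ribosomal stalk that recruits elongation factors, stood at 834 and 1258 against 39.3 to 159 in the others. *Rps23*, a protein of the decoding centre, stood at 121 and 167 against 4.72 to 25.8, and *Rpl4*, which lines the exit tunnel for the growing peptide, at 585 and 912 against 78.1 to 225. *Rpl10*, *Rpl13a*, *Rpl19*, *Rpl22*, *Rpl24*, *Rps3*, *Rps14* and *Rps20* were the rest of the 12.

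The opposite was seen for *Rpl7*, a large-subunit protein, with 1230 and 897 against 5911 to 14212 in the other mice, a 4.81-fold gap between the higher of the pair and the lowest other mouse. *Rpl8*, which lies near the catalytic centre of the large subunit, had 2307 and 2041 against 7691 to 34797, a 3.33-fold gap. *Rps19*, a small-subunit protein mutated in Diamond-Blackfan anaemia, had 49.5 and 22.8 against 133 to 358. *Rpl23*, *Rpl32*, *Rpl36a*, *Rpl37*, *Rplp1*, *Rps25* and *Rps7* were the rest of the 10. The stalk was thus split, with *Rplp0* above and *Rplp1* (2888 and 2807 against at least 4083) below the range of the other mice.

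The genes above the range were mostly of low level and those below mostly of high level. The median of the mean levels was 74.9 for the 12 and 5953 for the 10, and over all genes that did the same it was 87.9 for 2606 genes above and 607 for 1647 genes below. The reference transcripts, the shortest matched for each gene, had a median of 6 CATG sites and 1011 bases for the 12. For the 10 the medians were 3 sites and 843 bases, and for the 29 that did neither 4 sites and 833 bases.

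**Figure D2:**
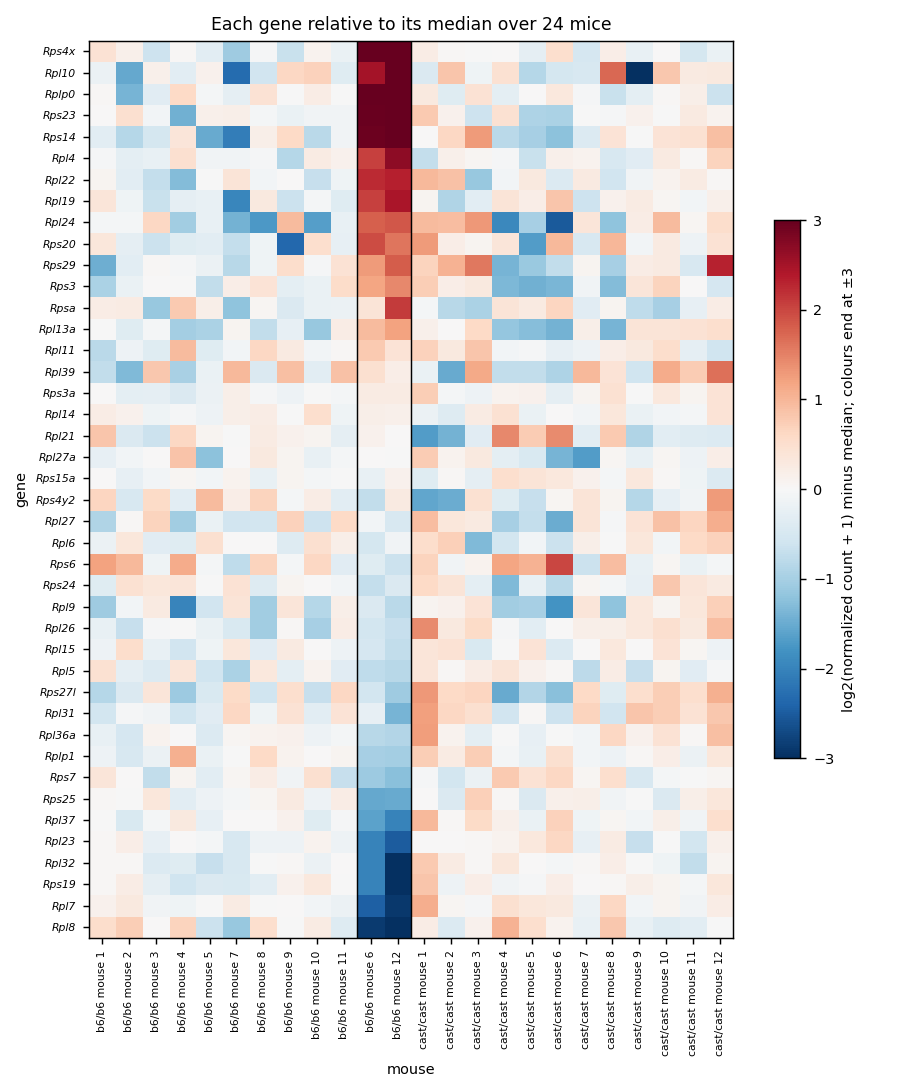
Deviation of 42 of the 51 genes (rows) from its median over 24 mice (columns), on the log2 scale (red above, blue below, colours ending at 3 units either way), with *b6/b6* mice 6 and 12 boxed between the genotypes. In the boxed pair 12 genes exceeded and 10 fell short of every other mouse, whereas no such block separates *cast/cast* from *b6/b6* mice.

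The comparison of *cast/cast* with *b6/b6* asks which hypothalamic mRNAs differ with the Chr 17 segment. It was made with limma on log2(normalized count + 1) across all genes. The call rule, taken from the study, was a P at or below 0.01 before adjustment together with mean levels that differed at least 1.5-fold. By this rule 1 of the 51 genes was called, or 1.96%, against 1.49% of all genes, so the share of called genes was close to the background. The single call was *Rpl26*.

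*Rpl26* encodes a large-subunit protein near the exit tunnel that is also known to bind the mRNA of p53. The gene lies on Chr 11 (chr11:68901565-68904534 in GRCm38). Its normalized count was 7094 in the lowest, 11563 in the median and 17002 in the highest *b6/b6* mouse, and 11728, 17833 and 38691 in the corresponding *cast/cast* mice. The genotypes overlapped, but 7 of 12 *cast/cast* mice exceeded the highest *b6/b6* value. Group means were 11545 ± 3192 (SD, n = 12) for *b6/b6* and 19632 ± 7244 (SD, n = 12) for *cast/cast*, which is a ratio of 1.70 and a log2 difference of 0.75 ± 0.18 (SE). *Rpl26* was higher in *cast/cast* mice with P = 0.000276 and an adjusted P of 0.049 (limma, Benjamini-Hochberg over all genes), the only ribosomal protein gene with an adjusted P at or below 0.05 (1.96%, against 0.572% of all genes).

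Without *b6/b6* mice 6 and 12, which had 9940 and 8975 counts and stood within the range of their group, the *Rpl26* fold change was 0.70 on the log2 scale (limma, P = 0.001006, adjusted P = 0.15). Without *cast/cast* mouse 1, which had the highest level and the highest total intake, it was 0.65 (limma, adjusted P = 0.083). With study number as a covariate it was 0.72 (limma, P = 0.000628, adjusted P = 0.092). The call by P and ratio was kept in these 3 fits. With total intake as a covariate the log2 fold change dropped to 0.39 and the call was lost (limma, P = 0.060, adjusted P = 0.98), which left none of the 51 called (0%, against 0.686% of all genes). Total intake was part of the choice of mice and differed with genotype, so this fit cannot separate genotype from intake.

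At P of at most 0.05 before adjustment, 7 of the 51 genes (13.7%) were higher in *cast/cast* mice and none was lower, against 3.76% of all genes higher and 4.37% lower. After *Rpl26* these were *Rpl36a*, *Rpl37*, *Rps19*, *Rpl32*, *Rpl31* and *Rpl7*. *Rpl36a*, an X-linked large-subunit protein, had a median of 588 (342 to 686) in *b6/b6* mice and of 662 (519 to 1512) in *cast/cast* mice, or a log2 fold change of 0.46 ± 0.17 (SE, limma, P = 0.013, adjusted P = 0.53). *Rpl37*, a zinc-binding large-subunit protein, had medians of 5857 (1491 to 7325) and 6477 (5236 to 11755), a log2 fold change of 0.58 ± 0.22 (SE, limma, P = 0.014, adjusted P = 0.53). *Rps19* had medians of 165 (22.8 to 254) and 212 (182.5 to 358), a log2 fold change of 0.67 ± 0.28 (SE, limma, P = 0.025, adjusted P = 0.59). The fold changes of *Rpl32*, *Rpl31* and *Rpl7* were 0.66, 0.52 and 0.66 on the log2 scale, with adjusted P of 0.59 to 0.60 in limma. Of the 7 genes, 5 were among the genes below the range of all other animals in *b6/b6* mice 6 and 12.

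The absence of lower genes depended on the model. At the same P, edgeR had 4 genes higher (7.84%, against 3.13% of all genes) and 5 lower (9.8%, against 8.43%), the latter being *Rpl10*, *Rpl4*, *Rplp0*, *Rps23* and *Rps4x*, which all lay above the range of the other animals in *b6/b6* mice 6 and 12. DESeq2 had 6 genes higher (11.8%, against 4.04%) and 2 lower (3.92%, against 8.02%), *Rplp0* and *Rps4x*. With study number as a covariate in limma, 10 were higher (19.6%, against 6.8%) and 2 lower (3.92%, against 8.03%), *Rplp0* and *Rps3*.

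Without *b6/b6* mice 6 and 12, 3 of the 51 genes were at P of at most 0.05 in limma (5.88%, against 4.89% of all genes), namely *Rpl26*, *Rpl37* and *Rps3a*, all higher in *cast/cast* mice (2.25% of all genes were). The fold change of *Rpl37* then fell to 0.30 on the log2 scale, that of *Rps19* to 0.27, that of *Rpl32* to 0.27 and that of *Rpl7* to 0.22. With total intake as a covariate, 1 gene was at P of at most 0.05 (*Rps7*, 1.96%, against 3.13% of all genes).

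**Figure D3:**
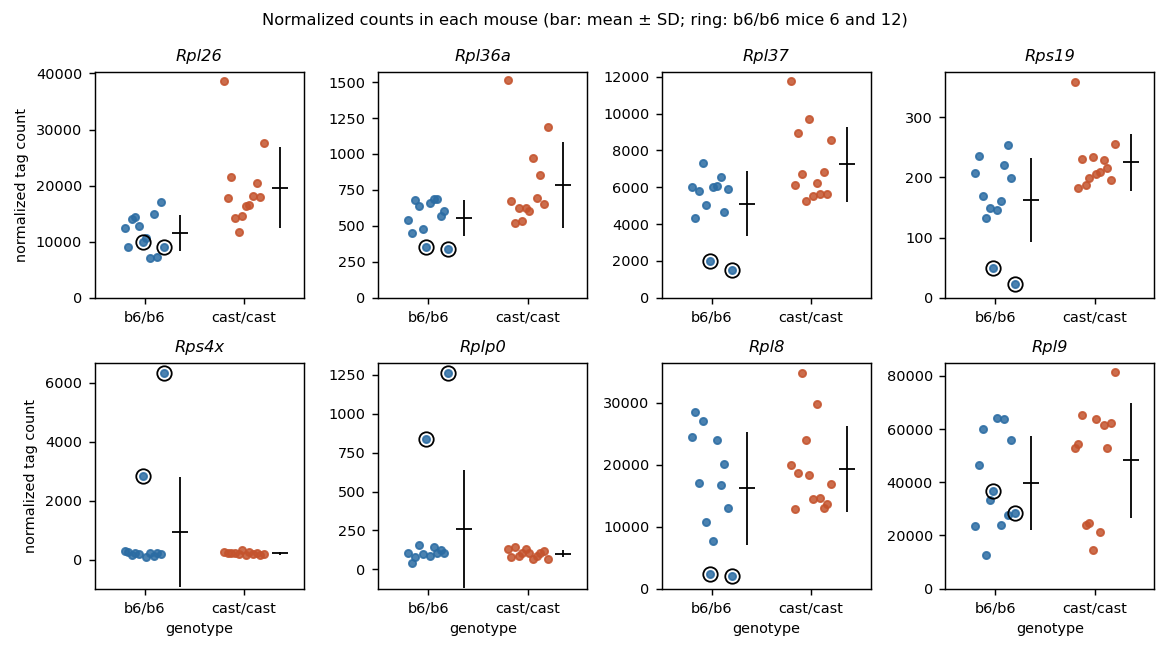
Normalized tag count (linear axes, 1 per gene) of 8 ribosomal protein genes in each mouse by genotype, with mean ± SD (n = 12 per genotype) and *b6/b6* mice 6 and 12 ringed. *Rpl26* was the only one called, and for *Rps4x* and *Rplp0* the ringed mice lie above, for *Rpl8* and *Rps19* below, all other animals.

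No gene was separated by genotype, since the ranges of *cast/cast* and *b6/b6* mice overlapped for all 51 (0.336% of all genes had ranges without overlap). The 5 genes with the lowest P among those lower in *cast/cast* mice were *Rps4y2*, *Rps3*, *Rplp0*, *Rpl4* and *Rps4x*, with log2 fold changes of −0.39, −0.43, −0.56, −0.39 and −0.59 and limma P of 0.153 to 0.235, so none of them passed. For *Rps4x* the value was 0.16 and for *Rpl4* 0.01 without *b6/b6* mice 6 and 12. The count test of edgeR called 3 of the 51 (5.88%, against 2.79% of all genes), *Rpl26* as well as *Rps4x* (log2 fold change −2.08) and *Rplp0* (−1.36), both lower in *cast/cast* mice, but neither of the latter when those 2 mice were left out.

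Over the 51 genes the median log2 fold change was 0.09, against −0.02 over all genes, and 33 of the 51 were positive (6620 of 13998 over all genes). It was 0.21 for the 31 genes of the large and 0.04 for the 20 of the small subunit. When all libraries were rescaled to the same total it was −0.01, and −0.11 over all genes, so the sign of the median depended on the scaling while its distance from that of all genes was close to the same.

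**Figure D4:**
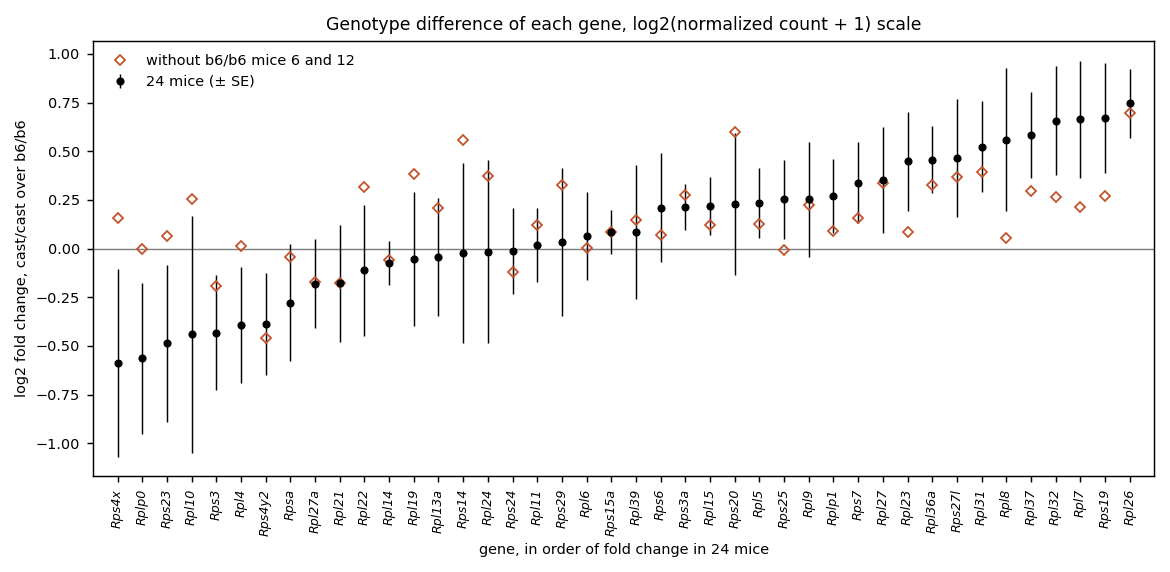
Log2 fold change (*cast/cast* over *b6/b6*) ± SE of 42 of the 51 genes from limma, with all 24 mice (filled) and without *b6/b6* mice 6 and 12 (open diamonds). *Rpl26*, at 0.75 with all mice and 0.70 without the pair, kept its value, whereas *Rps4x* went from −0.59 to 0.16.

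Related genes were described by the same counts. Of 6 genes with ribosomal protein names on Chr 17 (*Rpl10a*, *Rpl36*, *Rpl7l1*, *Rps10*, *Rps18* and *Rps28*), none was called and none was at P of at most 0.05. Of 67 genes for mitochondrial ribosomal proteins, none was called and 3 were higher at P of at most 0.05 (*Mrpl48*, *Mrpl51* and *Mrps12*, where 3.76% of all genes were higher), with a median log2 fold change of 0.08. Without *b6/b6* mice 6 and 12, *Mrps12* stayed at that P, *Mrpl48* (limma, P = 0.11) and *Mrpl51* (limma, P = 0.067) did not, and *Mrpl42*, *Mrpl47* and *Mrps6* reached it. Of 21 measured genes of translation factors and other mRNAs with an oligopyrimidine start, 2 were higher at that P, among them *Fau*, which encodes a ribosomal protein fused to a ubiquitin-like protein. *Fau* had a mean of 22938 with *b6/b6* and 32165 with *cast/cast* alleles (0.50 on the log2 scale, limma, adjusted P = 0.53). It stood at 13221 and 11584 in *b6/b6* mice 6 and 12, below all other mice (18331 or more), and without these mice none of the 21 was at P of at most 0.05. Of 29 ribosome assembly genes, *Ltv1*, a factor that helps the small subunit mature, was called (1.49% of all genes were), with means of 76.1 and 119 (log2 fold change 0.64, limma, adjusted P = 0.21). Its call was lost without *b6/b6* mice 6 and 12 (43.9 and 42.4 counts), since the ratio of the means was then 1.43 (limma, P = 0.00811). Of 11 genes of mTOR control, *Tsc1*, an inhibitor of the pathway, was higher in *cast/cast* mice at P of at most 0.05 (means 1576 and 1926, limma, adjusted P = 0.61). Without *b6/b6* mice 6 and 12, which had its lowest levels (1195 and 974), its log2 fold change was 0.17 (limma, P = 0.167) and none of the 11 was at that P.

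Spread between mice of the same genotype exceeded the median of all genes for 32 of the 51. The median SD of log2 levels within genotype was 0.71, against 0.57 over all genes and 0.54 over genes in the same range of mean level. Without *b6/b6* mice 6 and 12 it was 0.52 for the 51 genes, 0.52 for all genes and 0.49 for genes in the same range of mean level. *Rpl10* (SD 1.61), *Rps4x* (1.29), *Rpl24* (1.24), *Rps14* (1.23) and *Rps23* (1.04) varied most. All 5 lay above the range of the other animals in *b6/b6* mice 6 and 12. Without these mice the SD was 1.12 for *Rpl10*, 0.37 for *Rps4x*, 1.12 for *Rpl24*, 0.80 for *Rps14* and 0.52 for *Rps23*, and *Rpl24*, *Rpl10*, *Rpl39* (0.95), *Rps29* (0.93) and *Rps27l* (0.81) varied most. *Rps15a* (0.23), *Rpl14* (0.24) and *Rps3a* (0.25) varied least, with and without the pair, and *Rps15a* stayed between 489 and 927 counts in all 24 mice.

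Mouse to mouse, the levels did not all rise and fall together. Among the 22 mice without *b6/b6* mice 6 and 12, and with the mean of each genotype removed, the median Pearson correlation over 1275 pairs of genes was 0.08, with 13.1% of pairs above 0.5 and 5.88% below −0.5. The same shares over pairs of all genes were not computed. These correlations are descriptions, since all genes of a library share its depth and quality. The levels most like *Rpl9* were those of *Rps27l* (r = 0.894), a copy of *Rps27* that p53 induces, *Rpl31* (0.857), *Rpl13a* (0.854) and *Rpl27* (0.849). The genes most opposed to *Rpl9* were *Rps6* (−0.857), the small-subunit protein that S6 kinase phosphorylates, *Rpl21* (−0.746) and *Rpsa* (−0.721). An r of at least 0.7 was found for 6 genes with *Rpl9* and for 7 others with *Rps6*. The latter included *Rps4x* (0.790), *Rpl8* (0.775) and *Rpl23* (0.766). An r of at most −0.7 was found for 3 genes with *Rpl9* and for 6 with *Rps6*. The first principal component of the 9503 other genes held 39.3% of their variance. Highest on it in *cast/cast* were mice 4, 5, 6 and 8. They had 14311 to 24775 *Rpl9* and 644 to 1372 *Rps6* counts, against 52690 to 81482 and 219 to 538 in the other *cast/cast* mice. In *b6/b6*, of the 22 mice, mice 1, 4, 8 and 10 were highest. Their counts were 12529 to 27512 and 527 to 793, against 33154 to 64259 and 201 to 673. The part of this component in the correlations was not tested.

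Total intake of each mouse allowed a comparison within genotype. In a common slope for both genotypes, 6 of the 51 genes were at P of at most 0.05 (11.8%, against 9.96% of all genes). *Rpl26*, *Rpl27*, *Rpl36a* and *Rps27l* rose by 0.29, 0.40, 0.22 and 0.43 log2 units per 10 kcal, and *Rpl21* and *Rps15a* fell by 0.49 and 0.15. None had an adjusted P below 0.48 (limma), and 0% of all genes had an adjusted P of at most 0.05. Without *b6/b6* mice 6 and 12, 11 of the 51 were at P of at most 0.05 (21.6%, against 10.8% of all genes), 8 of them rising and 3 falling, and none passed after adjustment.

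Separate slopes for each genotype, fitted after the data were seen, differed in their counts. In *cast/cast* mice 16 genes rose with total intake at P of at most 0.05 (31.4%, against 12.8% of all genes) and 2 fell (3.92%, against 12% of all genes), while in *b6/b6* mice none did (0%, against 3.9% of all genes). With adjusted P, 3 of the 51 passed in *cast/cast* mice (5.88%, against 1.72% of all genes), and 5 when *b6/b6* mice 6 and 12 were left out of the fit (9.8%, against 5.56% of all genes). Among the 3, *Rps27l* rose by 0.80 ± 0.21 log2 units per 10 kcal (SE, limma, adjusted P = 0.0499) over levels from 639 to 4436. *Rpl21*, a large-subunit protein, fell by 0.87 ± 0.20 (SE, limma, adjusted P = 0.045) and was lowest, at 23.7 counts, in the mouse that ate most. *Rpl26* had a slope of 0.41 ± 0.13 (SE, limma, adjusted P = 0.071).

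The difference between the slopes of the genotypes was itself tested. It was at P of at most 0.05 for 9 of the 51 genes (17.6%, against 19.9% of all genes) and reached an adjusted P of 0.05 for none, the value for *Rps27l* being 0.80 ± 0.31 (SE, limma, adjusted P = 0.20). A difference between the genotypes in this relation was thus not shown for any of these genes. Without *cast/cast* mouse 1, 13 genes had a slope at P of at most 0.05 in *cast/cast* mice (25.5%, against 20.1% of all genes), and none passed after adjustment. With 2 principal components of the other genes as covariates, 12 did, 10 of them rising (19.6%, against 5.82% of all genes), none passed after adjustment, and the slope of *Rps27l* was 0.14 (limma, P = 0.10) and that of *Rpl26* 0.25 (limma, P = 0.067). The 4 *cast/cast* mice highest on the first of these components (0.249 to 0.444), mice 4, 5, 6 and 8, had eaten 104.0 to 121.3 kcal. The part of this component in the slopes was not tested further.

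**Figure D5:**
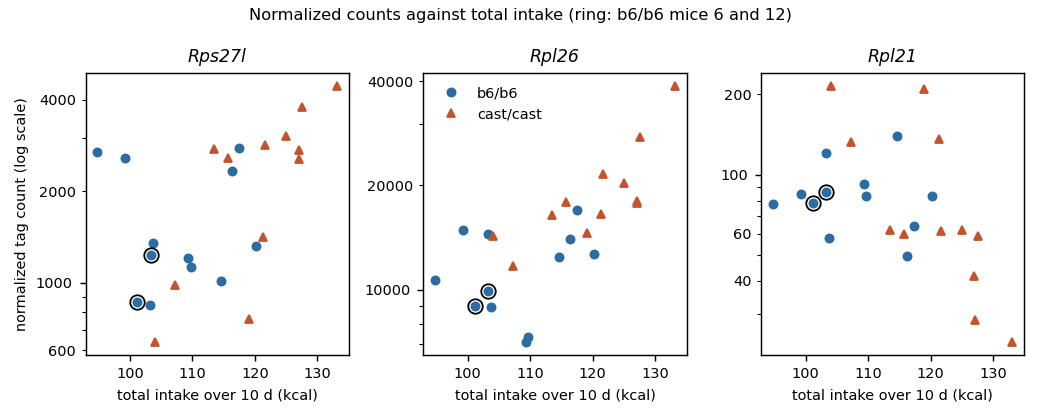
Normalized tag count (log axis) of *Rps27l*, *Rpl26* and *Rpl21* in each mouse against its total intake over 10 d (kcal), by genotype, with *b6/b6* mice 6 and 12 ringed. In *cast/cast* mice *Rps27l* rose by 0.80 and *Rpl21* fell by 0.87 log2 units per 10 kcal, and the levels of *b6/b6* mice show no such slope at P of at most 0.05.

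C/P intake within genotype gave 5 genes at P of at most 0.05, all falling (9.8%, against 3.72% of all genes), among them *Rpl4*, *Rpl10*, *Rps20* and *Rps29*, with adjusted P of 0.96 or more in limma. Study number gave 11 (21.6%, against 21.2% of all genes) and none without *b6/b6* mice 6 and 12 (0%, against 3.87% of all genes).

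Promoter sequence was available for 37 of the 51 genes from RefSeq (GRCm38.p6), as 250 bases before to 50 bases after the start. A run of 5 or more C or T bases that opened with C and began within 5 bases of the annotated start was found in 24.3% of them and in 12.5% of 27025 promoters. Runs that opened with T or began farther away were not counted, so both shares can miss starts rich in C and T. The motif CCGGAAG, searched on both strands as were the others, was held by 45.9% against 9.12% of all promoters, GGGCGG by 54.1% against 35.9%, AAGATGGC by 5.41% against 2.88%, and TATAAA by 8.11% against 14.2%. The longest runs near the start, in capitals within windows of 30 bases, were those of *Rpl27a*, *Rpl15*, *Rpl13a* and *Rps6*, shown as examples of the oligopyrimidine start.
Rpl27a, chr7:109519180-109519209, plus strand: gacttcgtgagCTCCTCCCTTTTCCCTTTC
Rpl15, chr14:18270972-18271001, minus strand: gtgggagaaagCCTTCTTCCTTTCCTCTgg
Rpl13a, chr7:45128731-45128760, minus strand: gaaaccctgcgacaagaCCTCCTCCTTTCC
Rps6, chr4:86857353-86857382, minus strand: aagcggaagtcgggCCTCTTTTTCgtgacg

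These 4 genes had log2 fold changes of −0.18, 0.22, −0.04 and 0.21 between the genotypes, none at P of at most 0.05. *Rpl26* had a run of 3 such bases near its annotated start.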

How the data were processed

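Hypothalamus SAGE-Seq libraries of 12 *cast/cast* and 12 *b6/b6* F2 mice were analysed, 1 per mouse, grouped by the genotype in the labels. Replicates are separate mice. Tags were mapped by the authors to RefSeq mRNA and GRCm38 (SOLiD SAGE Analysis Software, modified), and the deposited signal values are tag hits divided by a DESeq size factor. The deposited table also holds the authors' own means, fold ratio, log2 fold change and p-value columns, none of which were used. Its 19529 rows describe 13998 genes with a mean of at least 6.03; lower genes were not analysed here. Whole tag hits were recovered for 100% of the values (tolerance 0.05), 7754202 to 13082873 per mouse. Intervals for counting error are not given, since the spread between mice is the error used.

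All genes were fitted with limma 3.58.1 (trend, two-sided) on log2(value + 1), *cast/cast* against *b6/b6*, or on total kcal, C/P kcal or study number with genotype as covariate. Fold changes are on that scale, which understates the change of low genes. P-values were adjusted over all genes by Benjamini-Hochberg. As alternatives, the pseudocount was set to 0.5 or 5, a mean of 20 was required, totals were rescaled, study number was a covariate, and edgeR 4.0.16 and DESeq2 1.42.0 were run on tag hits. Fits without *b6/b6* mice 6 and 12 or *cast/cast* mouse 1, with 2 principal components or total kcal, and with separate slopes were added after seeing the data. The tools were tested on simulated data. The genes described and the gene lists were chosen with earlier results of these data known. Genes named were called ones, the 5 with the lowest P in each direction, the extremes of level (5 each way) and of spread (5 and 3), and genes chosen by role. The remaining genes named were chosen after their values were seen, to list those behind a count. Ribosomal protein genes absent from the table, such as *Rpl3* and *Rplp2*, were not analysed here, and values of some single genes are not reported here. Python 3.11.15 and R 4.3.3 were used.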

Additional observations from a re-analysis of the deposited data

How the results depend on the processing

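No paired analysis was possible because the labels give no replicate numbers that the genotypes share. Of the counts, the genes called went from 1 to 3 with edgeR and to 0 with total kcal as covariate. Those at P of at most 0.05 went from 7 to 3 without *b6/b6* mice 6 and 12, to 12 with study number and to 1 with total kcal as covariate. With 2 principal components as covariates there were again 7 (13.7%, against 8.35% of all genes). Of the 7 in the main fit, only *Rpl26* and *Rpl31* were among them. The number with an adjusted P of at most 0.05, which was 1 (*Rpl26*), became 0 with pseudocount 5, rescaled totals (adjusted P = 0.17), study number (0.092) or total kcal as covariate, edgeR (0.058) with and without the 2 mice, limma without them, and without *cast/cast* mouse 1, while DESeq2 gave 0.0063. Without the 2 mice, the 6 genes with a slope on total kcal became 11 (21.6%, against 10.8% of all genes). The 5 on C/P kcal then became 3 (5.88%, against 2.86% of all genes), and the 11 on study number 0 (0%, against 3.87%). With 2 principal components, the genes with a slope on study number were 1 (1.96%, against 4.2% of all genes). Slopes in *b6/b6* mice went from 0 to 1 without the 2 mice (1.96%, against 1.67% of all genes) and 3 with components (5.88%, against 3.1% of all genes). The median SD was 0.37 with components. The causes were not tested.

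The following log2 fold changes turned sign. Without the 2 mice they were 0.25 for *Rpl10*, 0.21 for *Rpl13a*, 0.38 for *Rpl19*, 0.32 for *Rpl22*, 0.37 for *Rpl24*, 0.015 for *Rpl4*, 0.56 for *Rps14*, 0.065 for *Rps23*, −0.0058 for *Rps25* and 0.16 for *Rps4x*. In edgeR without them they were 0.43 for *Rpl10*, 0.33 for *Rpl13a*, 0.076 for *Rpl21*, 0.35 for *Rpl22*, 0.52 for *Rpl24*, 0.026 for *Rpl4*, 0.56 for *Rps14*, 0.084 for *Rps23* and 0.12 for *Rps4x*. With 2 components they were 0.43 for *Rpl10*, 0.19 for *Rpl13a*, 0.51 for *Rpl19*, 0.35 for *Rpl22*, 0.30 for *Rpl24*, 0.15 for *Rpl4*, −0.033 for *Rpl6*, −0.037 for *Rpl8*, 0.15 for *Rplp0*, 0.66 for *Rps14*, 0.12 for *Rps23*, −0.078 for *Rps25*, 0.34 for *Rps4x* and 0.063 for *Rpsa*. With total kcal they were 0.026 for *Rpl14*, 0.0203 for *Rpl19*, 0.43 for *Rpl21*, 0.049 for *Rpl22*, −0.14 for *Rpl27*, −0.21 for *Rpl6*, −0.0043 for *Rpl9*, −0.14 for *Rps20*, −0.068 for *Rps27l* and −0.44 for *Rps29*, and *Rpl26* kept its sign at 0.39. With rescaled totals they were −0.072 for *Rpl11*, −0.0062 for *Rpl39*, −0.021 for *Rpl6*, −0.0069 for *Rps15a* and −0.059 for *Rps29*. With study number they were −0.061 for *Rpl11*, −0.017 for *Rpl39*, 0.067 for *Rps24* and −0.11 for *Rps29*. In edgeR they were −0.0097 for *Rpl11*, 0.083 for *Rpl21*, −0.0016 for *Rps20* and 0.049 for *Rps24*, while *Rplp0* (−1.36) and *Rps4x* (−2.08) passed the call. In DESeq2 they were −0.0084 for *Rpl11*, 0.096 for *Rpl21*, −0.001 for *Rps20* and 0.057 for *Rps24*. Without *cast/cast* mouse 1 they were −0.032 for *Rpl11* and −0.018 for *Rps29*. Apart from *Rps4x* and *Rplp0* in edgeR with all mice and *Rps14* (limma, P = 0.045) and *Rpl19* (limma, P = 0.026) with 2 components, none of the values in this paragraph was at P of at most 0.05. Genes of the lowest levels are limited by counting error, as *Rpl10* had no tag hit in *cast/cast* mouse 9.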
